A study of Homo sapiens with 9 samples.

Results

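The small nucleolar RNA host genes were taken as every gene of the deposited count table whose symbol is SNHG followed by a number, together with GAS5, EPB41L4A-AS1, ZFAS1 and DANCR. The rule found 32 genes among the 61832 rows of the table, and 28 of them passed a filter on low counts that left 20402 rows. The RNA came from HCT116, a long-established line from a human colon carcinoma that is labelled WT in all 9 libraries. Their labels give 3 groups of 3. The shCTRL DMSO group had a control short hairpin RNA plus DMSO, a solvent. In shSLC6A3 DMSO the hairpin was directed at SLC6A3, which encodes the dopamine transporter, again with DMSO. In shCTRL VXN the control hairpin was combined with an agent given as VXN, although the title of replicate 3 reads VNN. The labels state neither what VXN is, nor its dose or time, nor whether hairpin cells were clones or pools, nor whether the replicates were separate cultures, so a p-value here measures scatter among libraries that may be purely technical.

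The authors' 2 deposited tables of differences between groups do not follow these labels. By their names, one compares shCTRL V to shCTRL D and the other compares shDAT D to the same controls. A rerun of DESeq2 on 3 other trios of libraries gave all 38907 p-values of each table within 1e-06, whereas the labelled groups gave 0 and 547 of them. The V trio holds replicate 3 of shCTRL DMSO, replicate 1 of shSLC6A3 DMSO and replicate 3 of shCTRL VXN. The DAT trio holds replicates 1 and 2 of shCTRL DMSO and replicate 1 of shCTRL VXN, and the D trio holds replicates 2 and 3 of shSLC6A3 DMSO and replicate 2 of shCTRL VXN. Both groupings were analysed, libraries are called by their labels, and neither grouping is taken to show which treatment a library received.

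Small nucleolar RNAs guide the chemical modification of ribosomal and spliceosomal RNA: those of the box C/D class direct ribose methylation and those of the H/ACA class direct pseudouridylation. Most human ones are cut from the introns of longer host transcripts. The host genes described here make spliced RNAs with little or no protein-coding potential, and several of these, GAS5 first among them, belong to the terminal oligopyrimidine (TOP) class, whose RNAs start with a C followed by further C and T bases. Spliced GAS5 is bound by ribosomes and then destroyed by nonsense-mediated decay, so it is known to build up when translation slows, and its name stands for growth arrest specific. By the positions in RefSeq, the tested genes comprised 11 hosts of box C/D RNAs only, 11 hosts of H/ACA RNAs only, 2 hosts of both and 4 with neither kind listed inside them. GAS5 held the largest number among the tested genes, with 10 box C/D RNAs and 1 H/ACA RNA.

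The bases around the annotated starts are shown because they carry the TOP feature. RefSeq's promoter table (GRCh38.p14) held 1 entry for 28 of the 32 genes. Each line gives 20 bases before the start and 30 from the start onward, 5′ to 3′ on the gene's strand, for the 4 genes with the highest level per kilobase of exon among those described library by library that have an entry. SNHG32, SNHG5 and SNHG4 were added after their sequences were seen. Capitals mark a run of at least 5 unbroken C or T bases, counted from a C within 10 bases of the start. Bases further upstream were not counted, and in SNHG29 the C and T bases go on upstream of the capitals.
SNHG29, chr17:16438967-16439016, plus strand: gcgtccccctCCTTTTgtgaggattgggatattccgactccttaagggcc
GAS5, chr1:173869016-173869065, minus strand: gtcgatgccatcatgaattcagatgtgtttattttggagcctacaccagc
ZFAS1, chr20:49278622-49278671, plus strand: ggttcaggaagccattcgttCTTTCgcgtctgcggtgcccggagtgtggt
SNHG1, chr11:62855856-62855905, minus strand: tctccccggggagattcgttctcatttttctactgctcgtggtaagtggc
SNHG32, chr6:31834896-31834945, plus strand: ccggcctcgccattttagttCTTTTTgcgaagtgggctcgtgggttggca
SNHG5, chr6:85678704-85678753, minus strand: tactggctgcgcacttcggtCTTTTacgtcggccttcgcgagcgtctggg
SNHG4, chr5:139274081-139274130, plus strand: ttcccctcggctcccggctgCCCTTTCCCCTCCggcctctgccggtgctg
ZFAS1, SNHG32, SNHG5, SNHG4 and SNHG19 had a run that began exactly at the annotated start, whereas SNHG1 had a run of 3 bases there. In SNHG12 a run of 12 bases began 1 base before the start. Its annotated RNA thus also starts with a C followed by C and T bases. The GAS5 entry starts upstream of the gene's start in GENCODE 29 and has no such run. Of the 24 tested genes with an entry, 5 had a run of at least 5 bases that began at the start itself. One counted from a C within 10 bases of the start was found in 15, and in SNHG29 and SNHG7 it was the end of a longer stretch. Over all 35116 RefSeq promoters the shares were 1.1% and 33.5%. The E-box CACGTG, searched on both strands (it reads the same on each), occurred in 2 of 28 host gene promoters (7.1%) and in 7.3% of all promoters.

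Total counts ran from 30251364 to 60215785 per library. The targeted gene SLC6A3 held 0 to 6 counts in every library, too few to check the labels. The epithelial genes EPCAM, CDH1, KRT8 and KRT18 lay above 100 CPM (counts scaled to a common total, on library sizes scaled by TMM) in every library, the leukocyte gene PTPRC was at 0.0655 CPM or less and the endothelial gene PECAM1 at 0.177 CPM or less. The fibroblast collagen gene COL1A1 ran from 18.9 to 47.5 CPM. The V trio stood apart from the other 6 libraries: MKI67, a marker of dividing cells, lay between 62.2 and 74.4 CPM there and between 519 and 611 CPM elsewhere. FOS, an immediate early gene, was between 328 and 535 CPM in the DAT trio and at 508 CPM in shCTRL VXN replicate 2. In the other members of the D trio it was at 4.41 and 4.06 CPM, so the D trio is itself mixed. In bulk RNA, fewer cells that express a gene and less of its RNA per cell cannot be told apart.

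Host genes moved in opposite directions in the V trio. Against the D trio, 9 of the 28 tested genes rose and 10 fell by edgeR's quasi-likelihood test at an adjusted p below 0.05, and 9 were not called. That is 67.9% of them, where 54.5% of all features were called in this comparison (28.0% higher and 26.6% lower). The median log2 fold change of the host genes was -0.23 and that of all features 0.02, and the median size regardless of sign was 0.40 and 0.42. The summed level of the 32 genes was 2391, 2384 and 2483 CPM in the V trio, 1784, 1754 and 1803 CPM in the D trio and 1708, 1753 and 1954 CPM in the DAT trio. The sum is weighted towards 4 abundant genes, of which SNHG29 and GAS5 rose and SNHG16 and SNHG1 fell.

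**Figure D1:**
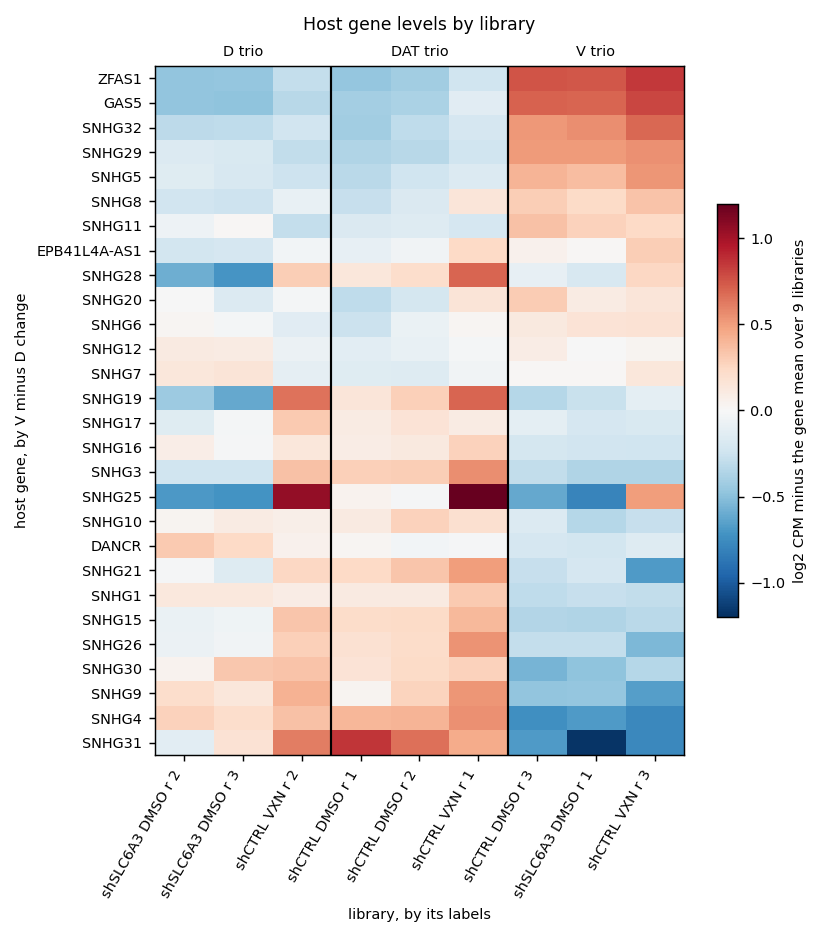
Level of each of the 28 tested host genes (rows, ordered by the change between the V and D trios) in each of the 9 libraries (columns, grouped by trio), as log2 CPM minus the mean of that gene over the libraries. ZFAS1, GAS5, SNHG32, SNHG29 and SNHG5 are red in all libraries of the V trio, SNHG4 is blue in all 3, and SNHG25 is high in the libraries labelled shCTRL VXN.

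The largest rises were in genes that host box C/D RNAs, 1 of which, GAS5, also hosts an H/ACA RNA. ZFAS1 (ENSG00000177410.13, GRCh38 chromosome 20, 49278178 to 49295738, plus strand), an RNA that carries SNORD12, SNORD12B and SNORD12C, was at 193, 191 and 205 CPM in the V trio. It was at 82.2, 82.6 and 93.3 CPM in the D trio and at 82.9, 85.6 and 96.4 CPM in the DAT trio. Every library of the V trio was thus above each of the other 6. The mean was 196 ± 7.75 CPM (SD, n = 3) in V and 86.0 ± 6.31 CPM (SD, n = 3) in D, a log2 fold change of 1.19 (SE 0.07, edgeR adjusted p = 3.65e-07).

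GAS5 (ENSG00000234741.8, chromosome 1, 173863900 to 173868882, minus strand) showed nearly the same pattern. It was at 378, 375 and 403 CPM in the V trio, 166, 165 and 183 CPM in the D trio and 174, 177 and 210 CPM in the DAT trio. The V libraries did not overlap with the rest, and the log2 fold change against D was 1.17 (SE 0.08, edgeR adjusted p = 6.38e-07). In all 3 trios the library labelled shCTRL VXN was the highest for both ZFAS1 and GAS5.

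SNHG29 (ENSG00000175061.18, chromosome 17, 16438822 to 16478678, plus strand), host of SNORD49A, SNORD49B and SNORD65, was the most abundant host gene in every library. Its level was 882, 883 and 908 CPM in the V trio, 552, 545 and 504 CPM in the D trio and 483, 492 and 525 CPM in the DAT trio. The V libraries again lay above all others, with a log2 fold change of 0.74 (SE 0.06, edgeR adjusted p = 1.44e-06) against D. SNHG32 (ENSG00000204387.14, chromosome 6, 31834608 to 31839766, plus strand), which carries SNORD48 and SNORD52, was at 105, 108 and 118 CPM in V, at 59.1, 59.2 and 62.6 CPM in D and at 55.0, 59.3 and 63.5 CPM in DAT. V lay above the other libraries, which overlapped with each other, and the log2 fold change against D was 0.87 (SE 0.07, edgeR adjusted p = 1.67e-06). SNHG5, host of the SNORD50 pair, rose by 0.63 on the log2 scale (SE 0.06), from 39.7 ± 1.39 CPM (SD, n = 3) in D to 61.5 ± 3.72 CPM (SD, n = 3) in V.

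SNHG6 (ENSG00000245910.8, chromosome 8, 66921684 to 66926398, minus strand), host of SNORD87, was called at the margin. It was at 124, 128 and 129 CPM in V, 116, 112 and 104 CPM in D and 95.2, 108 and 116 CPM in DAT, a log2 fold change of 0.20 (SE 0.07, edgeR adjusted p = 0.0435) against D. With DESeq2 the adjusted p was 0.0782, and most other settings lost the call too.

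Other box C/D hosts fell in the same libraries. SNHG1 (ENSG00000255717.7, chromosome 11, 62851988 to 62855914, minus strand), which holds 8 box C/D RNAs from SNORD22 to SNORD31, was at 137, 140 and 138 CPM in the V trio. It was at 185, 185 and 180 CPM in D and 182, 182 and 210 CPM in DAT, so that V lay below every other library, with a log2 fold change of -0.41 (SE 0.06, edgeR adjusted p = 0.00028) against D. SNHG16 (ENSG00000163597.15, chromosome 17, 76557766 to 76565348, plus strand), host of SNORD1A, SNORD1B and SNORD1C, was at 177, 174 and 173 CPM in V, 216, 203 and 224 CPM in D and 217, 222 and 248 CPM in DAT. Its log2 fold change was -0.29 (SE 0.06, edgeR adjusted p = 0.00243). The less abundant SNHG30 and SNHG26 fell by 0.70 (SE 0.13) and 0.43 (SE 0.14) on the log2 scale. SNHG19 and SNHG25 were not called and are described with the labelled groups.

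The H/ACA hosts held the largest falls. SNHG4 (ENSG00000281398.4, chromosome 5, 139274102 to 139284899, plus strand), which holds SNORA74A and SNORA74D, was at 20.7, 21.5 and 20.1 CPM in the V trio. It was at 41.8, 39.8 and 44.0 CPM in D and 45.3, 45.6 and 50.3 CPM in DAT, with no overlap between V and the rest. The log2 fold change against D was -1.01 (SE 0.07, edgeR adjusted p = 4.78e-07). SNHG31 (ENSG00000229267.3, chromosome 2, 214810229 to 214963274, plus strand) had 14 to 66 counts per library. It was at 0.435, 0.309 and 0.409 CPM in V, 0.639, 0.786 and 1.07 CPM in D and 1.26, 1.10 and 0.950 CPM in DAT, a log2 fold change of -1.11 (SE 0.26, edgeR adjusted p = 0.00419) against D, the widest error among the called genes. SNHG9, SNHG15 and DANCR, an RNA first named for blocking differentiation, fell by 0.79 (SE 0.14), 0.43 (SE 0.10) and 0.40 (SE 0.07) on the log2 scale. SNHG10, in which RefSeq lists neither class of RNA, fell by 0.33 (SE 0.10).

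H/ACA hosts that rose were SNHG8, SNHG11 and EPB41L4A-AS1. SNHG8 (ENSG00000269893.8, chromosome 4, 118278709 to 118279823, plus strand), host of SNORA24, was at 46.9, 44.9 and 48.6 CPM in V, 32.7, 32.2 and 36.0 CPM in D and 31.5, 33.9 and 42.2 CPM in DAT. The V libraries were the highest of the 9, and the log2 fold change was 0.48 (SE 0.10, edgeR adjusted p = 0.00193). SNHG11 rose by 0.39 (SE 0.10) and EPB41L4A-AS1 by 0.28 (SE 0.11), the latter with an adjusted p of 0.0479 from edgeR, a call that DESeq2 and most other settings did not give. Of the 11 H/ACA hosts 3 rose and 5 fell, and of the 11 box C/D hosts 5 rose and 4 fell. GAS5, a host of both classes, is in neither count. Over all features 28.0% were called higher and 26.6% lower. SNHG12 and SNHG7 had log2 fold changes of -0.01 (SE 0.07) and -0.01 (SE 0.08). SNHG3, SNHG17, SNHG20, SNHG21 and SNHG28 ranged from -0.41 to 0.26 without a call by edgeR, though DESeq2 called SNHG3 and SNHG17 lower.

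**Figure D2:**
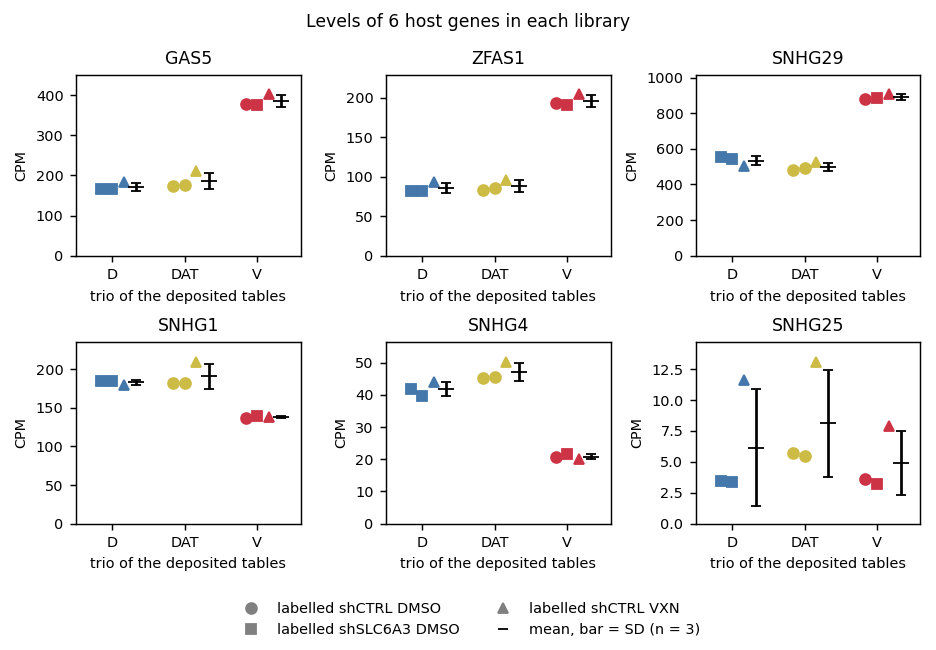
CPM of 6 host genes in each library (points, shaped by the label of the library and coloured by trio), with the mean and SD of each trio beside them. GAS5, ZFAS1 and SNHG29 are highest in the V trio and SNHG1 and SNHG4 lowest there, while in each trio the highest point of SNHG25 is the library labelled shCTRL VXN.

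Annotated starts with a run of C and T were found among genes that rose, genes that fell and genes not called. A run of at least 5 bases that began exactly at the start was found in 3 of the 8 genes with a promoter entry that rose (ZFAS1, SNHG32 and SNHG5). It was found in 1 of the 8 that fell (SNHG4) and in 1 of the 8 not called (SNHG19). In SNHG12, also not called, a run covered the start but began 1 base before it. These counts are a description of annotated starts, and starts used in these cells were not measured.

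Against the DAT trio the V trio gave 8 host genes higher and 13 lower of 28 (75.0%), where 57.4% of all features were called (28.7% in each direction). V is in both comparisons, so they are not independent of each other. ZFAS1 and GAS5 were at log2 fold changes of 1.15 (SE 0.07) and 1.04 (SE 0.08). SNHG4 was at -1.18 (SE 0.07) and SNHG31 at -1.53 (SE 0.26). SNHG3, SNHG17 and SNHG21 were called lower here, at -0.73 (SE 0.15), -0.29 (SE 0.11) and -0.72 (SE 0.19), but not against D, and EPB41L4A-AS1 was called only against D, at 0.09 (SE 0.11) here. Whether the 2 comparisons differ for these genes is the comparison of DAT with D, in which none of the 4 was called. CPM in the trios did not overlap for 24 of the 28 genes between V and DAT and for 22 between V and D, where all features gave 69.6% and 60.4%.

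**Figure D3:**
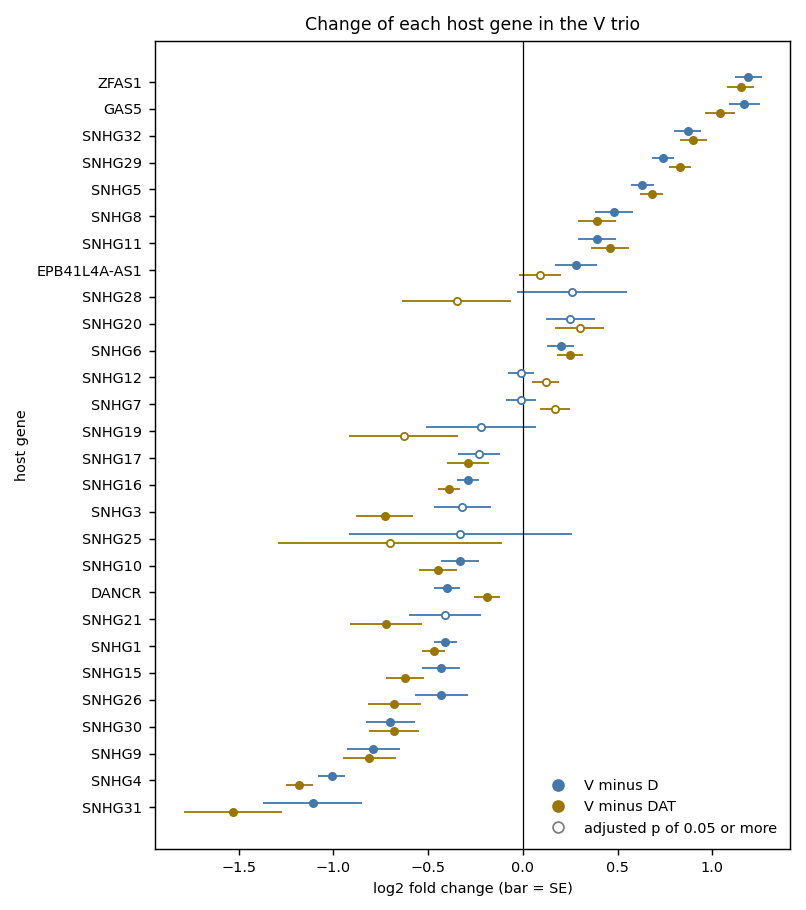
Log2 fold change of each of the 28 tested host genes between the V trio and the D trio (blue) and between the V and DAT trios (ochre), with SE; open points have an adjusted p of 0.05 or more. ZFAS1 and GAS5 are near 1 in both, and SNHG4 and SNHG31 are below -1 in both.

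The authors' deposited table for shCTRL V against shCTRL D gave 7 host genes higher and 11 lower of the 28 with an adjusted p, where 44.0% of all features with an adjusted p were called (21.4% higher and 22.7% lower). ZFAS1 was at 1.16 (SE 0.08), GAS5 at 1.13 (SE 0.09) and SNHG4 at -1.03 (SE 0.08) in the authors' deposited table, on its log2 scale. The authors' deposited table calls SNHG3 lower at -0.33 (SE 0.14), and leaves SNHG6 at 0.17 (SE 0.09) and EPB41L4A-AS1 at 0.24 (SE 0.12) without a call. The authors' deposited table for shDAT D against shCTRL D had an adjusted p for 17 of the host genes and called 0 of them (3 with an unadjusted p below 0.05), where it called 6.62% of all features (1.0% higher and 5.62% lower).

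No host gene was called between the DAT and D trios by edgeR, where 0.0% of all features were. An unadjusted edgeR p below 0.05 was found for 4 of the 28 and for 4255 of all 20402 features. DESeq2 also called 0 host genes, where it called 4.36% of all features. The log2 fold changes ran from -0.22 to 0.61. CPM of these trios did not overlap for 3 of the 28 genes, 2 higher and 1 lower in DAT, where 18.8% of all features did not. This result turned on 1 library of the D trio, the one with high FOS. Without shCTRL VXN replicate 2, edgeR called 8 host genes higher and 4 lower, and 43.1% of all features. SNHG3 was then at a log2 fold change of 0.62 (SE 0.07, adjusted p = 1.37e-05) in edgeR. SNHG19, SNHG15, SNHG28, SNHG4, SNHG17, SNHG26 and SNHG31 were also higher, by 0.20 to 0.98, and DANCR, SNHG7, SNHG12 and SNHG29 were lower, at -0.29 to -0.13. SNHG3 itself was at 44.1 and 44.0 CPM in the other libraries of the D trio, at 66.5 CPM in shCTRL VXN replicate 2, at 42.3, 40.6 and 40.6 CPM in the V trio and at 63.6, 64.0 and 76.7 CPM in the DAT trio. ZFAS1, GAS5 and SNHG32, all high in V, were not called between DAT and D with or without that library.

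The labelled comparisons called no host gene by edgeR. Between shSLC6A3 DMSO and shCTRL DMSO, where 0.0% of all features were called, log2 fold changes ran from -0.68 to 0.20 and DESeq2 called 0 host genes. An unadjusted edgeR p below 0.05 was found for 2 of the 28 and for 904 of all 20402 features. Between shCTRL VXN and shCTRL DMSO, where 0.0098% of all features were called, log2 fold changes ran from -0.21 to 1.13. In that comparison 1 host gene and 376 of all features had an unadjusted edgeR p below 0.05. Each labelled group holds 1 library of the V trio, so its spread includes the difference between V and the rest: GAS5 in shCTRL DMSO was at 174, 177 and 378 CPM. A p above the threshold here does not show that the host genes were alike.

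The gene with the unadjusted p below 0.05 was SNHG25 (ENSG00000266402.3, chromosome 17, 64145970 to 64146476, plus strand), host of SNORD104. It was singled out after its values were seen. Its CPM values were 13.1, 11.6 and 7.87 in shCTRL VXN, and it was at 5.74, 5.50 and 3.63 CPM in shCTRL DMSO and at 3.22, 3.46 and 3.39 CPM in shSLC6A3 DMSO. Every library labelled shCTRL VXN was above the other 6, although they belong to 3 different trios. The log2 fold change was 1.13 (SE 0.24) with an edgeR adjusted p of 1. DESeq2 gave an adjusted p of 0.0215, and with membership of the V trio added as a term, an alternative chosen after the data were seen, edgeR gave 1.13 (SE 0.12) and an adjusted p of 0.00527. With that term 0.127% of all features were called in this comparison and SNHG25 was the only host gene among them.

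SNHG25 has the shortest annotated exons of the 32 genes, 278 bases in GENCODE 29, followed by SNHG19 with 342 and SNHG9 with 551. SNHG19 was at 15.0, 14.5 and 8.52 CPM in shCTRL VXN, 10.2, 11.3 and 7.28 CPM in shCTRL DMSO and 7.70, 6.86 and 6.04 CPM in shSLC6A3 DMSO. In each trio its highest library was thus again the one labelled shCTRL VXN, though these groups overlap. SNHG9 shared this in D (8.49 CPM against 7.36 and 6.96 CPM) and in DAT (9.17 CPM against 6.50 and 7.65 CPM), but not in V. In the V trio its lowest library was the one labelled shCTRL VXN, at 4.02 CPM against 4.59 and 4.61 CPM. With the V trio term SNHG19 was at a log2 fold change of 0.39 (SE 0.18, edgeR adjusted p = 0.537). The descriptions of the libraries labelled shCTRL VXN carry consecutive numbers set apart from those of most other libraries. The number of shCTRL DMSO replicate 1 stands apart from the rest as well. What these numbers stand for is not stated in the labels. Any differences in library preparation cannot be told apart from the label.

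Levels between genes were compared per kilobase of annotated exon, which counts every exon of any transcript and so understates a gene whose long transcripts are rare. SNHG29 was highest, at 237 ± 3.99 CPM per kb (SD, n = 3) in V and 142 ± 6.86 (SD, n = 3) in D. SNHG6, GAS5, ZFAS1, SNHG1, SNHG32, SNHG8 and SNHG16 followed, with means over the 9 libraries from 91.8 down to 38.4 CPM per kb. This order pools the trios and holds in none of them. In V the order after SNHG29 was GAS5, SNHG6, ZFAS1, SNHG32, SNHG8, SNHG1 and SNHG16, from 106 ± 4.17 down to 32.6 ± 0.411 CPM per kb (SD, n = 3). In D it was SNHG6, SNHG1, GAS5, SNHG16, ZFAS1, SNHG8 and SNHG32, from 88.6 ± 4.84 down to 33.5 ± 1.09 CPM per kb (SD, n = 3). In D, neighbours whose libraries overlap on this scale are SNHG1 and GAS5, SNHG16 and ZFAS1, and ZFAS1 and SNHG8. GAS5 and SNHG6 lie close together in V, at 106 ± 4.17 and 102 ± 2.19 CPM per kb (SD, n = 3). At the other end SNHG31 was at 0.367 and SNHG28 at 0.421 CPM per kb. SNHG14, the very long host of the imprinted SNORD115 and SNORD116 clusters, had 0 to 3 counts per library, as did SNHG22. SNHG18 and SNHG27 had 0 counts in all 9.

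**Figure D4:**
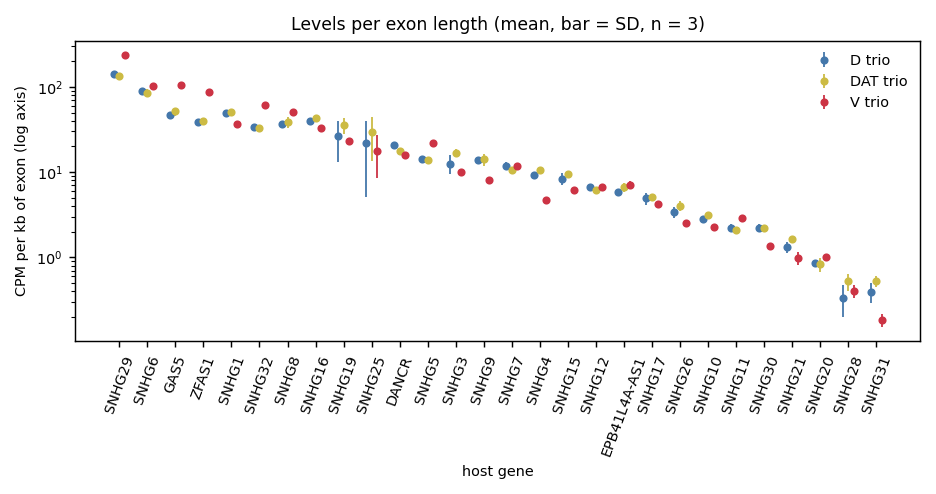
Mean level of each of the 28 tested host genes per kilobase of annotated exon in each trio (log axis), with SD of 3 libraries. SNHG29 is the highest in all 3 trios. For SNHG19 the D trio has a wide bar, since 1 of its libraries is high. For SNHG25 the bars are wide in all 3 trios, each of which has 1 high library.

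The table also has rows for the small RNAs inside the hosts. The labelled kit (TruSeq RNA v2) is not a small RNA kit, so such rows are read here only as reads over those intron positions, not as levels of mature small RNAs. Of 129 such rows, 35 in 18 hosts passed the low-count filter; SNORD44 and the other RNAs inside GAS5 have no row of their own. Against the DAT trio, V gave 2 of the 35 higher and 10 lower, where 57.4% of all features were called, and against D it gave 2 higher and 5 lower, where 54.5% were. The rows inside ZFAS1 and ZFAS1 itself moved apart. SNORD12B had 10, 21 and 23 counts in the V trio and 62, 52 and 37 in DAT, a log2 fold change of -1.54 (SE 0.44, edgeR adjusted p = 0.0123), while the host was at 1.15. SNORD12 was at -1.38 (SE 0.51) and SNORD12C at -2.12 (SE 0.69), both called lower against DAT. Against D none of the 3 was called, at -0.98, -0.42 and -1.27 for SNORD12, SNORD12B and SNORD12C, where shCTRL VXN replicate 2 had 49, 55 and 39 counts and the other libraries of the D trio 4 to 21.

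Nested rows of other hosts went with the host in some cases and not in others. SNORD49B rose with SNHG29, from 8.18 ± 0.643 CPM (SD, n = 3) in DAT to 16.4 ± 1.15 CPM (SD, n = 3) in V (edgeR adjusted p = 5.83e-06), and SNORD49A rose by 0.76 on the log2 scale. SNORD65 in the same host was at -0.41 without a call. Within SNHG1, SNORD22, SNORD25, SNORD26, SNORD27 and SNORD30 fell against DAT, by 0.43 to 0.89 on the log2 scale, and against D all 5 fell as well. The rows inside SNHG32 were at -0.01 and -0.13 while the host rose by 0.90. SNORA73A and SNORA73B were at 0.13 and 0.01 while their host SNHG3 was at -0.73, and SNORD1C was at 0.99 without a call while SNHG16 was at -0.39. Host and nested rows can share reads, depending on how the counting treated overlaps, which no source used here gives.

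**Figure D5:**
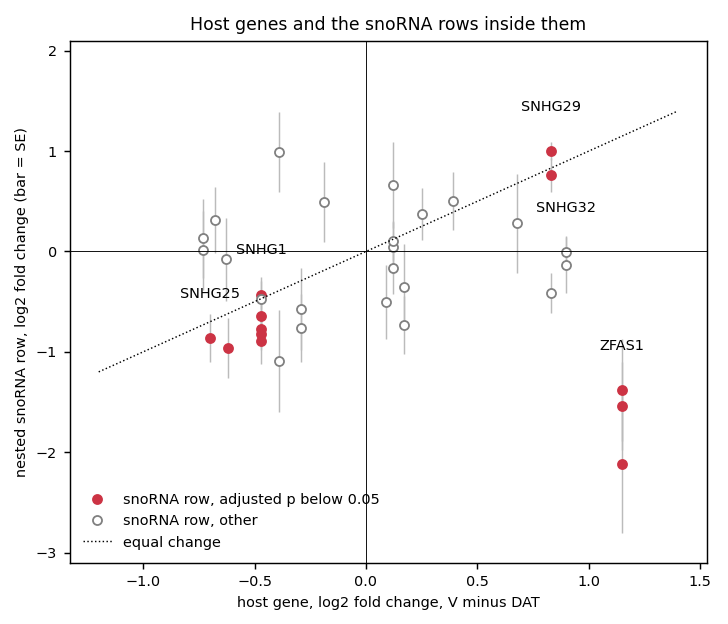
Log2 fold change between the V and DAT trios of each of 35 nested small nucleolar RNA rows (vertical axis, with SE) against that of its host gene (horizontal axis); red rows have an adjusted p below 0.05. The rows of SNHG1 lie near the line of equal change or below it, and those of ZFAS1 lie far below it, with the host at 1.15.

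Most genes for the protein partners of small nucleolar RNAs were called lower in the V trio, where 26.6% of all features were called lower and 28.0% higher against D. Of 17 genes for the core proteins and assembly factors, 13 fell and 0 rose against D, with a median log2 fold change of -0.64. GAR1, ZNHIT3, ZNHIT6 and NOP10 were not called, at -0.26, -0.12, 0.11 and 0.03. FBL, the methyltransferase of box C/D particles, was at -1.05 (SE 0.06), RUVBL2, a helicase of particle assembly, at -1.06 (SE 0.06) and its partner RUVBL1 at -1.07 (SE 0.09). Among 21 coding hosts of small nucleolar RNAs other than ribosomal protein genes, 13 fell and 1 (TAF1D, 0.22) rose, with a median of -0.46. CWF19L1 was at -1.08 (SE 0.07), the chaperonin subunit gene TCP1 at -1.04 (SE 0.07) and the splicing factor gene SF3B3 at -0.61 (SE 0.04). Against DAT these lists gave 12 and 13 lower and 0 and 2 higher, where 28.7% of all features were called in each direction.

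Ribosomal protein hosts and decay factors were called in both directions, where 28.0% of all features were called higher and 26.6% lower against D. Of 23 ribosomal protein genes that host small nucleolar RNAs, 7 rose and 3 fell against D, with a median of 0.04 where all features had 0.02. RPS2 was at -0.37 (SE 0.05), RPL7A at -0.26 (SE 0.05) and RPL37 at 0.31 (SE 0.06). Of 10 nonsense-mediated decay factors, which degrade spliced RNAs with early stop codons, 4 rose and 1 fell, also with a median of 0.04. SMG6, the endonuclease of the pathway, was at 0.56 (SE 0.05), the kinase SMG1 at -0.52 (SE 0.06) and UPF3A at 0.57 (SE 0.07). Against DAT, where 28.7% of all features were called in each direction, the ribosomal protein hosts gave 6 higher and 8 lower with a median of -0.07. The decay factors gave 6 higher and 1 lower there, with a median of 0.28 where all features had 0.00. All 4 lists gave 0 calls by edgeR between DAT and D and in both labelled comparisons. An unadjusted edgeR p below 0.05 was found for 22 of their 71 genes between DAT and D, and for 4255 of all 20402 features. Each labelled comparison had 1 of the 71, where 904 (shSLC6A3) and 376 (VXN) of all features were below 0.05. In the same contrast of V with D, MKI67 was at -3.04 (SE 0.09), MYC at -0.80 (SE 0.08), the stress factor gene DDIT3 at 1.96 (SE 0.10) and the cell cycle inhibitor CDKN1A at 1.53 (SE 0.09). Their part in the host gene changes was not tested.

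Several host genes share exon bases with a neighbour, so that their counts are uncertain where the counting could split or merge reads. EPB41L4A-AS1 shares 49.6% of its annotated exon bases with EPB41L4A on the opposite strand, which was at 0.72 in V against D where EPB41L4A-AS1 was at 0.28. SNHG7 shares 25.2% with FAM69B, which was at -1.07 where SNHG7 was at -0.01. ZFAS1 shares 11.1% with ZNFX1, on the opposite strand, at 0.26. SNHG3 shares 5.9% with RCC1 on its own strand, at -0.79 where SNHG3 was at -0.32. SNHG4 shares 14.0% with MATR3, at -0.33 where SNHG4 was at -1.01. SNHG32 shares 23.2% with AL671762.1 on its own strand, at 0.66 where SNHG32 was at 0.87. SNHG21 shares 72.9% with AC105339.2 on its own strand, at 0.09 where SNHG21 was at -0.41. SNHG16 shares 30.6% with AC015802.6 on the opposite strand, at 0.22 where SNHG16 was at -0.29. SNHG6 shares 29.3% with MCMDC2 on the opposite strand, which had a mean of 0.156 CPM. For GAS5, the overlap with its antisense gene covers 1.2% of the exon bases.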

How the data were processed

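Per the file headers and values, the table from the authors gives raw counts of 60651 genes and 1181 repeat subfamilies in each of 9 libraries. Per the submitters' processing notes, fastp 0.20.1, FastQC 0.11.9, STAR and DESeq2 1.34.0 were used with GRCh38; no source used here names the counting program or annotation. The log2 fold changes and p-values in the authors' deposited tables carry DESeq2's column names. Here counts were filtered (filterByExpr, minimum count 10), scaled by TMM and tested with edgeR 4.0.16 (quasi-likelihood, R 4.3.3; all 9 libraries in each fit), with Benjamini-Hochberg adjustment over 20402 features and an adjusted p below 0.05 called. SE is the log2 fold change divided by the root of the F statistic. DESeq2 1.42.0 was the alternative tool. On counts simulated over 20402 features for the V against D comparison, edgeR found 92 of 100 planted log2 changes of 1 and called 9 of 19835 unchanged features. Features without a planted change had equal means there, whereas 54.5% of all features were called in the data. The simulated rates therefore need not hold for the data. Positions and exon lengths are from GENCODE 29 and matched 32 of 32 genes; this release may differ from the authors'. Same-numbered libraries of the labelled groups did not pair: the correlation of their deviations ran from -0.689 to 0.894.

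The members, gene lists and tests were chosen with earlier results of these data known. Genes given library by library are the 8 with the highest mean level per kilobase and any other called gene with a log2 fold change of at least 1 in size in V or DAT against D; up to 3 genes per list were named by adjusted p.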

Additional observations from a re-analysis of the deposited data

How the results depend on the processing

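Between V and D the number of host genes called was 17 to 19 with DESeq2, median-of-ratios size factors, total counts, no low-count filter or only the 6 libraries compared, and 16 to 20 when 1 library was left out. The share of all features called was 53.1%, 54.3%, 54.3%, 27.5% and 50.3% under those settings in turn. When 1 library was left out that share ran from 46.8% to 62.3%. DESeq2 gave 7 higher and 12 lower, 17 of them shared with edgeR: it dropped SNHG6 and EPB41L4A-AS1 and added SNHG3 and SNHG17 as lower. EPB41L4A-AS1 lost its call under each of the settings just named and without 4 of the 6 libraries in turn. Between V and DAT the number of host genes called was 21 to 23 under those settings and 18 to 20 without 1 library. The main edgeR fit called 57.4% of all features in that comparison. Of the host genes given library by library, SNHG6 alone lost its call in V against D: with DESeq2, median-of-ratios factors, total counts, no filter, or without 5 of the 6 libraries in turn; against DAT it lost it without shCTRL DMSO replicate 1. None changed direction. Between DAT and D the count of 0 ranged from 0 to 12 without 1 library, the 12 being without shCTRL VXN replicate 2, where 43.1% of all features were called. In the labelled VXN comparison the count of 0 became 1 (SNHG25) with DESeq2 and with the V trio term, and was 0 to 0 without 1 library. In the labelled shSLC6A3 comparison it was 0 under every setting run, and 0 to 0 without 1 library. With the replicate block both labelled comparisons gave 0 host genes called; the title numbers do not pair the libraries, and the trios carry no pairing. SNHG31, SNHG28 and SNHG21 had under 100 counts in every library, which limits their precision.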
